A study of Mus musculus with 6 samples.

Results

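Tetranectin and the plasminogen activation system comprise 7 of the 24938 genes listed in these libraries. The genes are Clec3b, Plau, Plat, Plaur, Serpine2, Anxa2 and S100a10, matched by symbol through the mouse GENCODE annotation, and all 7 were found. Clec3b was chosen by its measured difference between the groups of this comparison, as the single protein-coding gene among 22 genes of any kind with a difference of at least 1 on the log2 scale. The other 6 were taken for their function, with earlier results of these data known. RNA was sequenced from NIH3T3 cells, an established line of mouse embryonic fibroblasts, in 6 libraries. Wild type cells gave the 3 control libraries. The 3 overexpression libraries came from NIH3T3 cells overexpressing F-CircAE, a fusion circular RNA related to AML1-ETO, the RUNX1 and RUNX1T1 gene fusion of human acute myeloid leukaemia. No group with an empty vector is among these samples. How F-CircAE was delivered, its promoter and whether the cells were a clone are not stated in the labels. Whether the replicates are separate cultures is not stated either, and p-values therefore reflect the spread among the 6 libraries, which may be technical.

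Plasmin, the protease made from plasminogen, dissolves fibrin and cleaves other proteins outside the cell. Its precursor is cut by 2 activators, urokinase (Plau), which is held at the cell surface by its receptor (Plaur), and tissue plasminogen activator (Plat). Serpins such as protease nexin 1 (Serpine2) trap the activators. Annexin A2 (Anxa2) and its partner S100a10 bind plasminogen and Plat at the cell surface, and tetranectin (Clec3b) is a secreted C-type lectin that binds plasminogen kringle domains. Fibroblasts use this system in wound repair and in turnover of the matrix around them.

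Promoter windows show the letters before the start of 3 members, chosen because these are the members that the RefSeq promoter table holds (3 of 7, build GRCm38.p6). Each window is the 250 bases before the RefSeq start, printed 5′ to 3′ on the strand of the gene, and capitals mark matches to the AP-1 motif TGANTCA. Plaur lies on the plus strand at chr7:24462233-24462482, Anxa2 on the plus strand at chr9:69453433-69453682 and Serpine2 on the minus strand at chr1:79858666-79858915. GENCODE, the source of the gene coordinates given with each member, places the gene start 63 bases upstream of the RefSeq start for Anxa2 and 2515 bases upstream for Serpine2. The Anxa2 window thus lies partly and the Serpine2 window wholly within the GENCODE gene.
Plaur: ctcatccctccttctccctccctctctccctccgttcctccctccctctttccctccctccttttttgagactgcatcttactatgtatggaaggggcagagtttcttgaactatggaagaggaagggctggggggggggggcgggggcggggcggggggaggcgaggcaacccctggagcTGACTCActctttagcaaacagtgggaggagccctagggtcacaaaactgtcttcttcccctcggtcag
Anxa2: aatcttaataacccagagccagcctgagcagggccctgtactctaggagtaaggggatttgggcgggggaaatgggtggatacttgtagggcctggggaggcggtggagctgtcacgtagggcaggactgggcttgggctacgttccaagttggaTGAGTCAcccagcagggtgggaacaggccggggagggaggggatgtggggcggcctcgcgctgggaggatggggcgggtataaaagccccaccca
Serpine2: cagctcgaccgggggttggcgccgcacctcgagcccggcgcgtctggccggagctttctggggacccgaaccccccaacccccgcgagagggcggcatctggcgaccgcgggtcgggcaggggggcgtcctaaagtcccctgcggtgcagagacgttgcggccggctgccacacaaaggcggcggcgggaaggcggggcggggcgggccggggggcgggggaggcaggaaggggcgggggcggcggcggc

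Plaur and Anxa2 each held 1 match to this motif. That of Plaur reads TGACTCA and begins 69 bases before the start. That of Anxa2 reads TGAGTCA and begins 95 bases before the start. Serpine2 held 0. Both strands were searched, and 6.75% of 32851 promoter windows of the same length hold this motif. The GC box GGGCGG occurred 3 times in Plaur, 3 times in Anxa2 and 6 times in Serpine2, where matches may share bases, and 32.74% of all windows hold it. The RUNX motif TGTGGT occurred in none of the 3 windows and in 14.05% of all windows. TATAAA occurred once in Anxa2, beginning 17 bases before the RefSeq start, in neither of the other two, and in 12.37% of all windows. The GC content was 59.6% in Plaur, 62.4% in Anxa2 and 78.8% in Serpine2. A match describes letters in these windows and does not show that a factor binds there.

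Depth was similar among libraries, and 2 of the controls stood apart. Reads recovered from the steps of the FPKM values (read counts corrected for gene length and depth) numbered 16968281 to 21842328 per library. Control replicates 1 and 2 were nearly alike, with a chi-square per gene of 1.45 between them, where counting error alone gives about 1, against 5.01 to 24.6 in the other 14 pairs. They were entered as 2 libraries because they differed beyond counting error, but if they share a culture or RNA the control spread is too small. The leading principal component (35.5% of the variance) put control replicates 1 and 2 at -13.9 and -13.3, control replicate 3 at 11.2, and overexpression replicates 1, 2 and 3 at 16.6, 0.59 and -1.34. Of 9 fibroblast markers 8 were above 1 FPKM in some library (summed 1706 to 2019 FPKM in control and 1584 to 1888 with overexpression), and the exception was Postn. All 3 endothelial and 3 adipocyte markers listed stayed below 1 FPKM. Cd68 of 4 macrophage markers, Cdh1 and Krt14 of 3 epithelial markers listed, and Des of 2 muscle markers listed were above 1 FPKM, none above 6.34. Epithelial markers summed to 4.96 to 8.49 FPKM in control and 6.49 to 7.37 with overexpression.

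Levels of the members differed widely on the FPKM scale, which corrects for gene length. S100a10 stood highest, at 522 to 627 FPKM over the 6 libraries and rank 78 to 92 among all listed genes. Anxa2 followed at 222 to 324 FPKM, then Plaur at 28.8 to 45.2 and Plat at 14.8 to 19.8. These 4 ranges did not overlap. Clec3b (2.21 to 19.4 FPKM) overlapped Plat above it and Plau (1.43 to 2.60 FPKM) below it. In 5 of 6 libraries Plat exceeded Clec3b, and in 5 of 6 Clec3b exceeded Plau. Serpine2 was close to 0 in every library, with 0 to 5 reads.

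**Figure D1:**
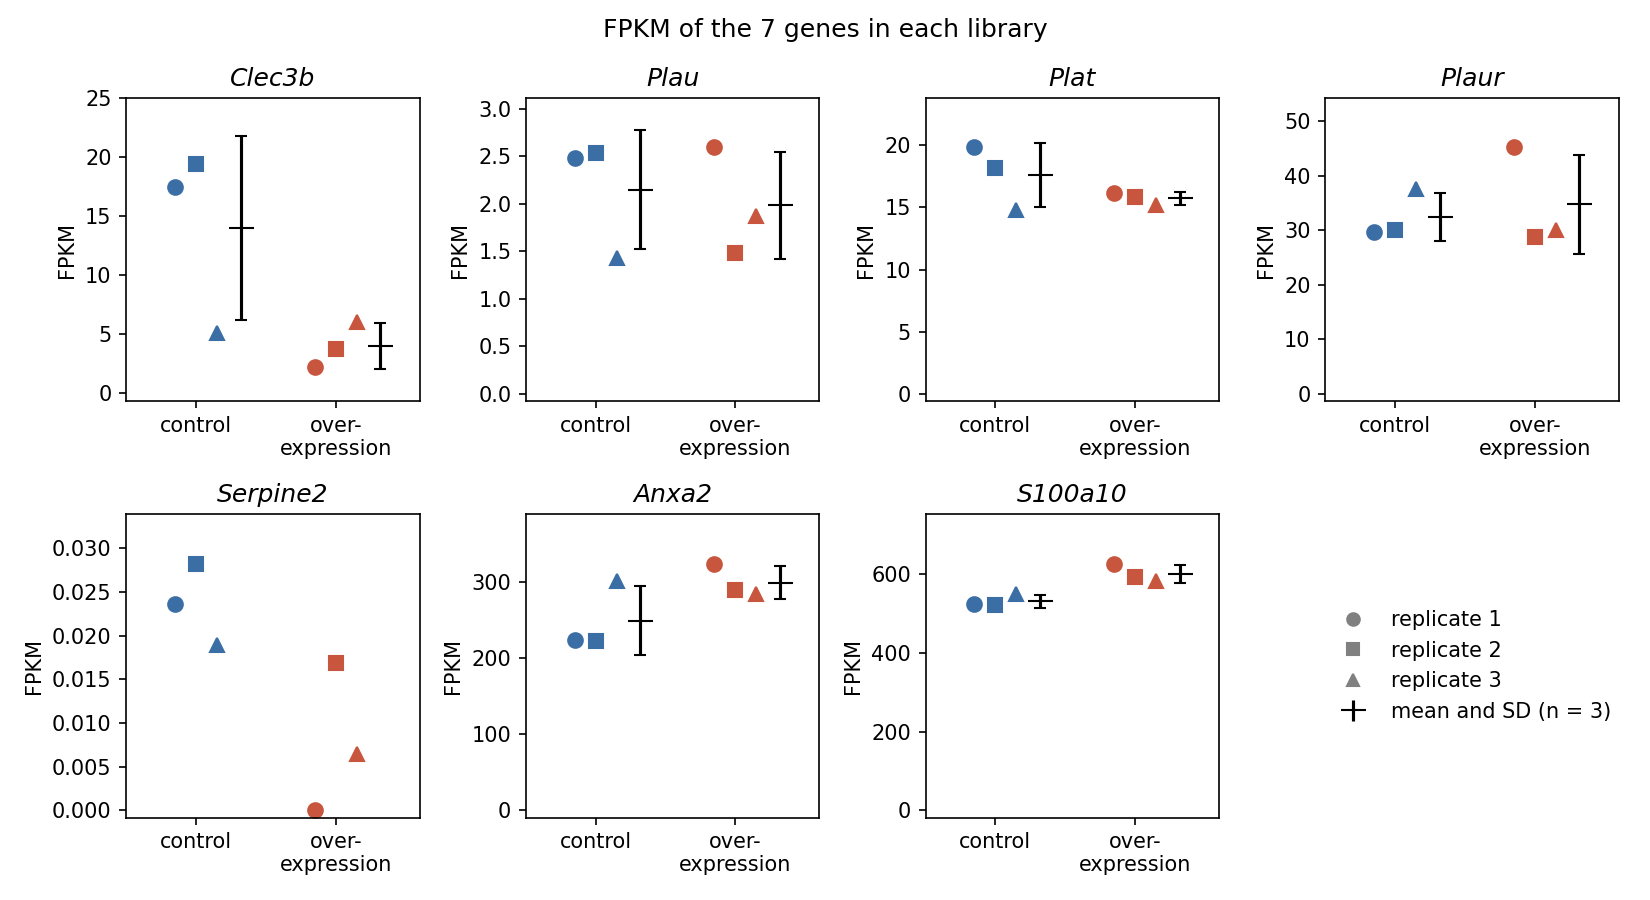
FPKM of each of the 7 genes in the 3 control and 3 overexpression libraries, with 1 panel per gene and its own linear axis from 0. Points are libraries, shapes are replicate numbers, and bars show the mean and SD (n = 3; none for Serpine2, which rests on 0 to 5 reads). Control replicate 3 lies among the overexpression libraries for Clec3b, Plaur and Anxa2, and the groups are apart for S100a10.

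Clec3b (ENSMUSG00000025784, chromosome 9, 123150946 to 123157432, mm10) held 17.5, 19.4 and 5.06 FPKM in the controls, in the order of replicates 1, 2 and 3 that is kept throughout. The overexpression libraries held 2.21, 3.76 and 6.06 FPKM. Control replicates 1 and 2 were high, whereas control replicate 3 lay within the range of the overexpression libraries, so the groups overlapped. These values rest on 354, 410 and 96 reads in control and 37, 80 and 112 with overexpression. Control libraries averaged 13.98 ± 7.78 FPKM and overexpression libraries 4.01 ± 1.94 FPKM (SD, n = 3), so the control mean was 3.49 times the overexpression mean. On the log2(FPKM + 1) scale the difference was -1.47, which is the value it was chosen for and is given without a test. Within the control group the mean of replicates 1 and 2 was 3.64 times the level of replicate 3. The spread between controls was thus of the same size as the difference between the group means. Leaving out control replicate 3 gave -2.03, and leaving out control replicate 2 gave -1.15. With a pseudocount of 5 in place of 1 the difference was -0.99, short of the limit of 1, so its choice depends on the pseudocount. Just outside that limit with a pseudocount of 1 lay Aldh3a1, an aldehyde dehydrogenase gene, at -0.98, and Dcn, which encodes the proteoglycan decorin, at -0.93. In bulk RNA, fewer cells with a transcript and less of it per cell cannot be told apart.

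Clec3b was highest in control replicates 1 and 2, the lowest libraries on the leading component, and lowest in overexpression replicate 1, the highest on it. Between these ends the order did not hold. Control replicate 3, at 11.2 on the component, held 5.06 FPKM, above the 3.76 FPKM of overexpression replicate 2, at 0.59. Of the 12 markers above 1 FPKM, 8 were higher in both of these controls than in the other 4 libraries, 2 were lower in both, and 2 were neither. The share of all tested genes with such an order was not counted, so these counts do not set the markers apart from other genes. Col1a1, Col1a2, Col3a1, Col5a1, Pdgfra, Pdgfrb and Prrx1, which are 7 of 8 fibroblast markers, were higher, as was the muscle marker Des by a narrow margin (2.200 FPKM in control replicate 1 against 2.198 in control replicate 3). Pdgfrb, a PDGF receptor gene, held 17.8, 17.1 and 7.60 FPKM in control and 6.91, 11.9 and 11.5 with overexpression. Col3a1, a fibrillar collagen gene, held 148, 146 and 85.6 FPKM in control and 48.8, 94.6 and 108 with overexpression. Vim and Krt14 were the lower pair. Krt14, a keratin gene, held 2.70, 2.37 and 6.06 FPKM in control and 5.17, 4.23 and 3.78 with overexpression. Cdh1, the other epithelial marker above 1 FPKM, did not follow Krt14, with 2.82, 2.57 and 2.41 FPKM in control and 2.19, 2.79 and 2.67 with overexpression. The macrophage marker Cd68 was mixed as well, with 4.32, 5.96 and 4.99 FPKM in control and 6.34, 5.10 and 4.56 with overexpression. The part of these differences among libraries in the Clec3b result was not tested.

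Neither activator passed the test. Plau (ENSMUSG00000021822, chromosome 14, 20836660 to 20843385) held 2.48, 2.54 and 1.43 FPKM in control and 2.60, 1.49 and 1.87 with overexpression. The highest and the lowest library of Plau were overexpression replicate 1 and control replicate 3, and the groups overlapped. With 64 to 127 reads per library, its log2 difference was -0.07 with a 95% interval of -0.53 to 0.39 (limma adjusted p = 0.945). Its sign turned to 0.01, 0.02 and 0.05 without control replicate 1, control replicate 2 or overexpression replicate 2. Plat (ENSMUSG00000031538, chromosome 8, 22757727 to 22782844) held 19.8, 18.2 and 14.8 FPKM in control and 16.2, 15.8 and 15.2 with overexpression. Control replicates 1 and 2 lay above all 3 overexpression libraries and control replicate 3 below them. Its log2 difference was -0.15, with a 95% interval of -0.39 to 0.10 (limma adjusted p = 0.843). Without control replicate 1 it was -0.06, and without control replicate 3 it was -0.26. Plat exceeded Plau in every library, by 6.24 to 10.6 times in FPKM.

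Plaur (ENSMUSG00000046223, chromosome 7, 24462484 to 24475968) was the most variable of the abundant members. Its levels were 29.7, 30.0 and 37.6 FPKM in control and 45.2, 28.8 and 30.1 with overexpression. Overexpression replicate 1 was high, control replicate 3 was next, and the other 4 libraries lay between 28.8 and 30.1 FPKM. The log2 difference was 0.07 with a 95% interval of -0.36 to 0.50 (limma adjusted p = 0.943), and it was -0.13 without overexpression replicate 1. Receptor RNA exceeded urokinase RNA 11.8 to 11.98 times in control replicates 1 and 2, 26.3 times in control replicate 3 and 16.1 to 19.4 times with overexpression.

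Serpine2 (ENSMUSG00000026249, chromosome 1, 79794197 to 79861180) was near the limit of detection. It had 4, 5 and 3 reads in control and 0, 3 and 1 with overexpression. The count of 0 in overexpression replicate 1 allows a level of up to 0.0214 FPKM (3 reads, for counting error only). It passed the filter of 1 FPKM in 0 libraries and was not tested, so 6 of the 7 members entered the fit.

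Both genes of the annexin A2 complex had estimates above 0, and neither passed the test. Anxa2 (ENSMUSG00000032231, chromosome 9, 69453620 to 69491795) held 223, 222 and 301 FPKM in control and 324, 289 and 284 with overexpression. Control replicate 3 lay within the range of the overexpression libraries and control replicates 1 and 2 below it. With 17017 to 23208 reads per library, the log2 difference was 0.28 with a 95% interval of -0.03 to 0.58 (limma adjusted p = 0.842). Without control replicate 3 the difference was 0.42, and after scaling to equal total FPKM it was 0.21. Exons of the antisense gene Gm16144 overlap Anxa2. Gm16144 held 19 to 30 reads per library, and how reads in the overlap were assigned is not stated. S100a10 (ENSMUSG00000041959, chromosome 3, 93555080 to 93564643) held 523, 522 and 551 FPKM in control and 627, 593 and 582 with overexpression. All 3 overexpression libraries lay above all 3 controls, averaging 601 ± 23.7 FPKM against 532 ± 16.4 FPKM (SD, n = 3). The log2 difference of S100a10 was 0.17 with a 95% interval of 0.03 to 0.32 before adjustment for the number of genes (limma adjusted p = 0.842), and it was 0.11 after scaling to equal total FPKM. The ratio of S100a10 to Anxa2 was 2.35 in both control replicates 1 and 2, 1.83 in control replicate 3 and 1.94 to 2.05 with overexpression.

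None of the 5 members tested besides Clec3b passed, and no other gene did. At an adjusted p below 0.05 there were 0 genes of 12222 tested (0%) in limma, with 632 at an unadjusted p below 0.05, and 0 of 14472 tested in limma-voom on recovered reads, with 740. Among the 6 members in the fit, 1 had groups that did not overlap with overexpression higher (S100a10), where 6.81% of all tested genes did. With overexpression lower there were 0, where 4.69% of all tested genes did. Weighting libraries by their estimated quality called 2241 of the 12222 tested genes. Plau, Plat, Anxa2 and S100a10 were among them (limma adjusted p = 0.033, 0.033, 0.021 and 0.023), and Plaur was not. Those weights ran from 0.24 for control replicate 3 and 0.28 for overexpression replicate 1 to 4.64 for overexpression replicate 2. They were also high for the nearly alike control replicates 1 and 2, at 2.16 and 2.57.

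**Figure D2:**
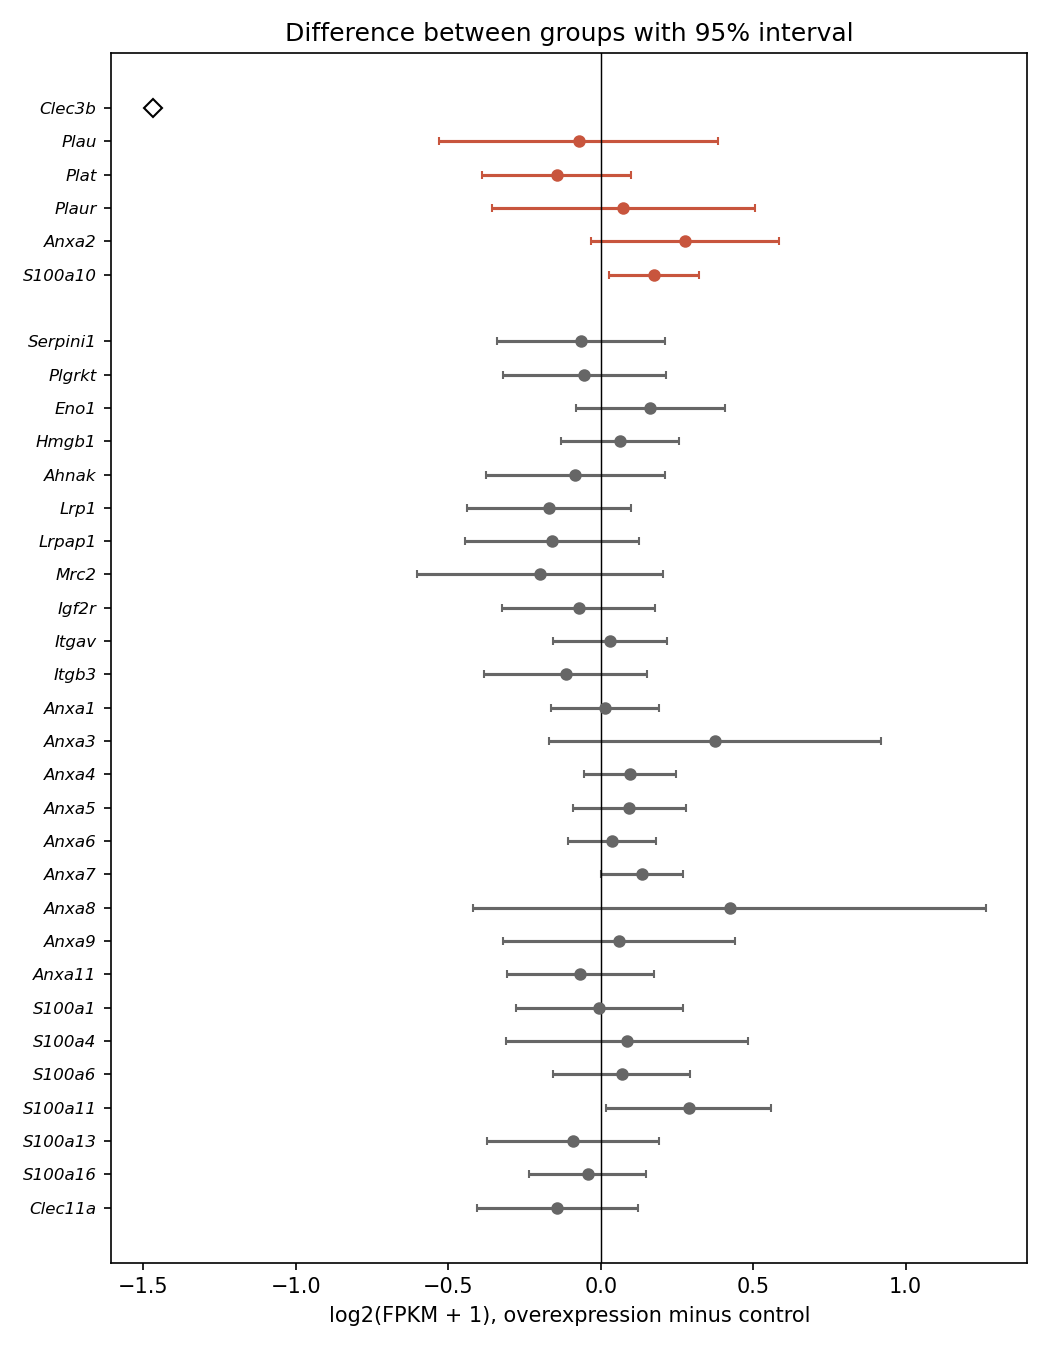
Log2 difference (overexpression minus control, on log2(FPKM + 1)) of the tested members and of 27 other tested genes of the pathway lists. Points are limma estimates and bars unadjusted 95% intervals, with members in red and other genes in grey. The open diamond is Clec3b at -1.47, shown without an interval because it was chosen for this value. The member S100a10 and, among the other genes, Anxa7 and S100a11 have intervals above 0.

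Other genes of the system were read from 7 lists of 48 genes, of which 44 were listed and 27 tested. None passed, with 14 estimates above 0 and 13 below (10 above 0 after scaling to equal total FPKM). That scaling also moved the median over all tested genes to -0.047. Estimates above 0 numbered 9 of 27 without control replicate 3 and 17 of 26 without control replicate 1. Groups did not overlap in 2 with overexpression higher (Anxa7 and S100a11) and 1 lower (Clec11a), near the 6.81% and 4.69% of all tested genes. For S100a11 and Clec11a the margin was narrow. The median of the 27 was 0.013, beside 0.008 over all tested genes, of which 53.2% were above 0. Over the 16 alternatives the list median lay between -0.05 and 0.05 and was below 0 in 8. Plasminogen itself (Plg) was at most 0.07 FPKM, and the proteases St14 and Hpn were at most 0.15 FPKM, so none of this list was tested. Of the serpins and other inhibitors, 1 of 7 listed genes was tested. Serpini1, which encodes the Plat inhibitor neuroserpin, lay between 0.78 and 1.11 FPKM, with a log2 difference of -0.06 (limma adjusted p = 0.920).

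Estimates were above 0 in 2 of 4 tested genes on the list of other plasminogen-binding and associated proteins (median 0.005). Eno1, a glycolytic enzyme that also binds plasminogen at the cell surface, was highest at 0.16. The list also holds Ahnak, a large scaffold protein that binds the annexin A2 complex, which was lowest at -0.08. Plgrkt, a plasminogen receptor, held 8.09, 7.76 and 6.05 FPKM in control and 6.28, 7.12 and 7.497 with overexpression. Of 6 tested uptake and adhesion partners 5 had estimates below 0, with a median of -0.14. All 6 were below 0 after scaling to equal total FPKM, which lowered the median over all tested genes as well. Mrc2, the collagen uptake receptor that associates with Plaur, had the lowest estimate at -0.20 (95% interval -0.60 to 0.20, limma adjusted p = 0.850). Its levels were 39.1, 40.2 and 25.4 FPKM in control and 28.3, 31.4 and 29.4 with overexpression. Lrp1, the endocytic receptor that clears activator and serpin complexes, held 96.7, 97.4 and 75.5 FPKM in control and 73.0, 83.5 and 81.6 with overexpression. For Mrc2 and Lrp1, control replicates 1 and 2 were above the other 4 libraries. Itgav, an integrin subunit, was the exception above 0, at 0.03.

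Relatives of the annexin A2 complex were tested in larger numbers. Estimates were above 0 for 8 of 9 annexin genes (median 0.09). The count was 7 after upper quartile scaling, 6 after scaling to equal total FPKM and 5 without control replicate 3. Both scalings also lowered the median over all tested genes. Anxa8 had the highest estimate, 0.42 with a 95% interval of -0.42 to 1.26, with 24.7, 23.9 and 61.0 FPKM in control and 36.6, 51.1 and 47.6 with overexpression. Control replicate 3 was its highest library. Anxa11 had the lowest annexin estimate at -0.07. Of 6 tested S100 genes 3 had estimates above 0, led by S100a11, a calcium-binding partner of annexin A1, at 0.29 (95% interval 0.02 to 0.56, limma adjusted p = 0.842). S100a11 held 1056, 1069 and 1214 FPKM in control and 1591, 1283 and 1223 with overexpression. Its groups did not overlap, by a narrow margin (1214 FPKM in control replicate 3 against 1223 in overexpression replicate 3). S100a13 was lowest at -0.09. Clec11a, a lectin gene related to Clec3b, held 1.23, 1.15 and 1.03 FPKM in control and 1.03, 0.80 and 0.99 with overexpression, a log2 difference of -0.14 (limma adjusted p = 0.850). Its groups were apart by a narrow margin (1.035 FPKM in control replicate 3 against 1.031 in overexpression replicate 1), at 51 to 75 reads per library.

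**Figure D3:**
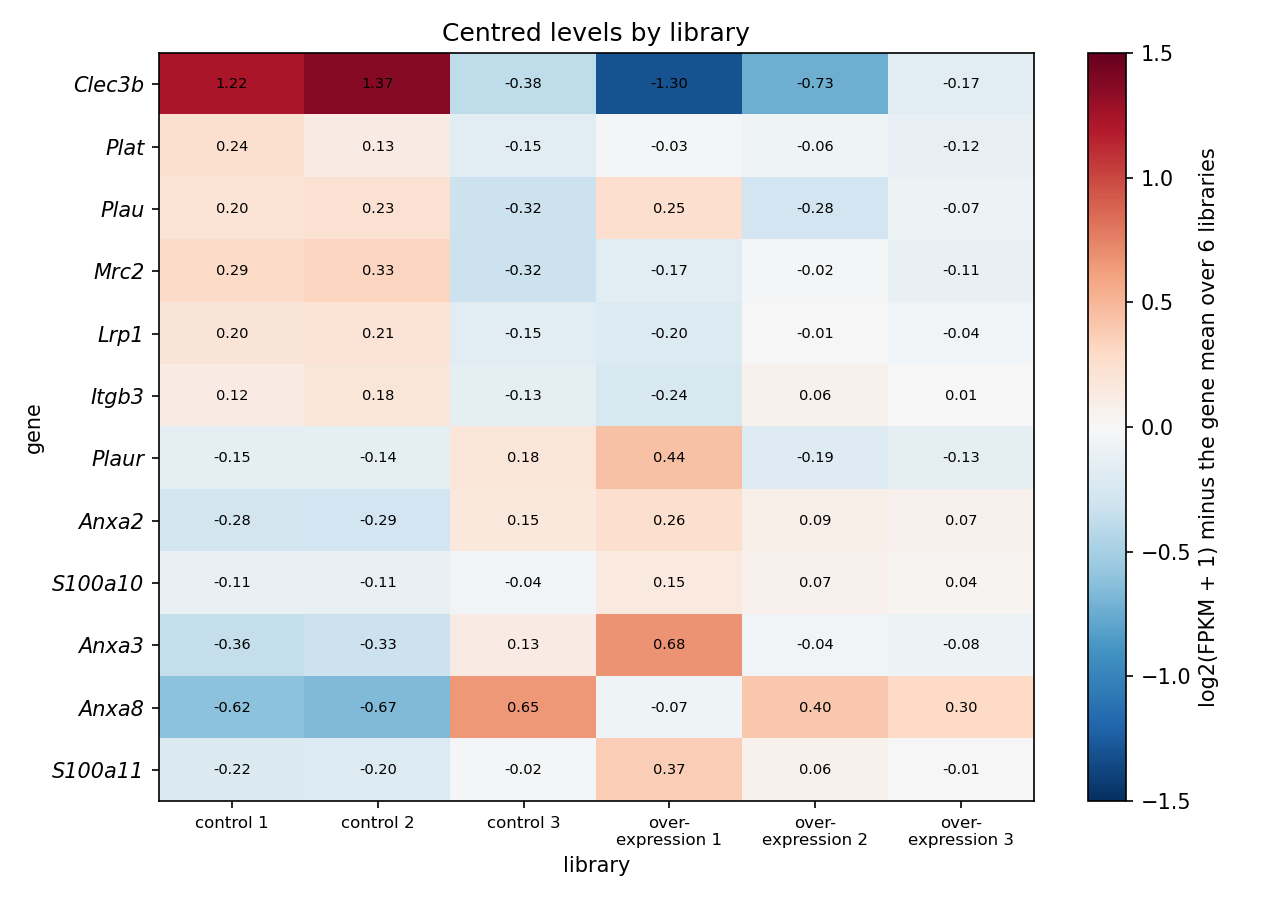
Log2(FPKM + 1) of 5 members besides Clec3b, Clec3b and 6 other pathway genes in each library, minus the mean of the gene over the 6 libraries. Columns are libraries, rows genes, and the numbers in the cells are the plotted values. Genes were picked for display after their values were seen. Clec3b ranges from -1.30 in overexpression replicate 1 to 1.37 in control replicate 2, while Anxa2 ranges from -0.29 to 0.26 in the opposite sense.

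Across the 6 libraries Anxa2 and S100a10 ran opposite to Clec3b. Pearson's r with Clec3b on log2(FPKM + 1) was -0.98 for Anxa2, -0.94 for S100a10 and -0.62 for Plaur. It was 0.93 for Lrp1, 0.84 for Mrc2, 0.77 for Plat and 0.41 for Plau. Serpine2 gave 0.82, on 0 to 5 reads per library. Among the list genes r was computed for Lrp1 and Mrc2 only, and Lrp1 was picked after its values were seen. The share of all tested genes with r of this size was not counted, so these values do not set the named genes apart. They are descriptions of 6 libraries that include a nearly alike pair, and they share the library structure described above.

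Genes most like Clec3b were sought among 579 tested genes whose highest and lowest libraries differed by at least 1 on the log2 scale. With 6 points and so many genes, values of r near 1 occur easily. The 5 highest were Sned1 (r = 0.99), Prelp (0.99), Tnr (0.98), Dcn (0.98) and n-R5s172 (0.98). Sned1, Prelp, Tnr and Dcn encode extracellular matrix proteins, and n-R5s172 is an annotated 5S ribosomal RNA copy with 3 to 15 reads per library. Prelp, a leucine-rich repeat proteoglycan, held 52.1, 53.5 and 26.4 FPKM in control and 19.5, 26.7 and 28.4 with overexpression. Dcn held 57.2, 58.1 and 26.4 FPKM in control and 14.3, 25.5 and 32.5 with overexpression. In both genes control replicate 3 lay within the overexpression range, as for Clec3b. Because they were picked by r with Clec3b, this likeness is largely fixed by the choice and is no separate result. The 3 lowest were Snord49a, a small nucleolar RNA (r = -0.98), the embryonic globin gene Hbb-bh1 (-0.96) and Gm17571 (-0.96), with 16 to 42, 25 to 78 and 0 to 3 reads per library.

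**Figure D4:**
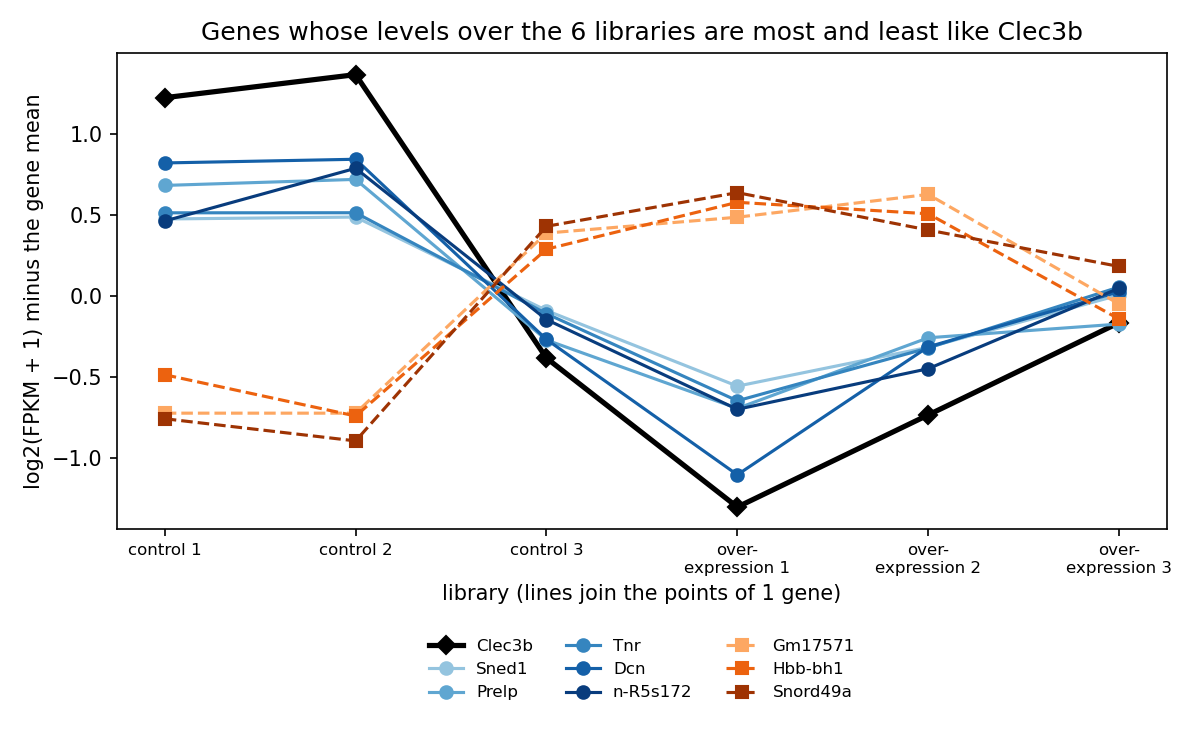
Log2(FPKM + 1) minus the gene mean in each library for Clec3b (black), the 5 genes most like it (blue, circles) and the 3 least like it (orange, squares). Lines join the points of 1 gene and imply no order of libraries. Control replicates 1 and 2 are the extremes at one end for all 9 genes, and control replicate 3 lies with the overexpression libraries. The other genes were picked by their r with Clec3b over these libraries, so this shared order follows from the choice.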

How the data were processed

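RNA from 3 wild type and 3 F-CircAE-overexpressing NIH3T3 samples was analysed. Groups came from the genotype label and replicate numbers from the titles. Libraries from DNase-treated RNA were built with a NEBNext Ultra kit and sequenced in pairs on an Illumina HiSeq, per the labels' protocols. The build was mm10, per the submitters' processing notes. Aligner, counter, strand setting and annotation version: not given in the sources used here. The deposited values are FPKM, per the file headers.

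Symbols and coordinates came from GENCODE M21 (24816 of 24938 IDs matched). Limma 3.58.1 in R 4.3.3 (trend and robust moderation) was fitted to log2(FPKM + 1) with a group term alone, over the 12222 genes exceeding 1 FPKM in 3 or more libraries. P-values were adjusted by Benjamini-Hochberg at 0.05 over all of them. Fold changes on this scale understate changes of low genes. On simulated data over 12222 genes, 87% of 200 genes changed 2-fold were recovered with 10 false calls. Of 200 changed 1.5-fold, 57% were recovered with 3 false calls. These changes were made in FPKM + 1, and the noise was independent for each gene and library. The simulation thus lacks the shared structure of the real libraries, and its shares may not hold for them.

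Library scales and reads were recovered from the steps between low FPKM values. With exon union lengths, reads were whole to within 0.01 in all libraries for 19832 genes (79.5%). For 5105 others, including Clec3b, Plau and Plat, the smallest length that did was taken, so their true reads may be a multiple.

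Members and lists were chosen with earlier results of these data known. Named genes were the 7 members, the highest and lowest tested gene of each list, and the 5 genes most and 3 least like Clec3b. Aldh3a1, Plg, St14, Hpn, Plgrkt, Lrp1, Anxa7, the marker genes and those picked for a figure were named after their values were seen. Pseudocounts, filters, scalings, a replicate block, averaged controls, left-out libraries, limma-voom and array weights were tried as alternatives. The list genes Klkb1, F12, A2m and Clec3a were not analysed here, and 1 gene of the planned lists is not reported here.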

Additional observations from a re-analysis of the deposited data

How the results depend on the processing

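Clec3b was negative under all 16 alternatives, at -2.03 to -1.15 over the 6 left-out libraries and -0.99 with a pseudocount of 5. Each moved it by less than 1 SD between replicates, a wide limit because control replicate 3 lay far from the other controls. The filters and the replicate block cannot move this estimate and left it at -1.47. Because Clec3b was chosen for its difference, its persistence is no support for that difference. The replicate number as a block also gave 0 called genes, and same-numbered libraries did not deviate together (correlations of -0.10, 0.08 and 0.003), so the numbers were not taken as pairs. The count of genes called was 0 to 2 over the left-out libraries, with 2 without control replicate 3 and 1 without overexpression replicate 1. Array weights called 2241 of all 12222 tested genes and 6 of 27 tested pathway list genes, a similar share. No list gene was called under the other alternatives. Plau, at -0.07, turned to 0.01 without control replicate 1, 0.02 without control replicate 2, 0.051 without overexpression replicate 2 (range over left-out libraries -0.25 to 0.051) and 0.016 with control replicates 1 and 2 averaged. Plaur, at 0.07, turned to -0.13 without overexpression replicate 1 (range -0.13 to 0.19) and -0.026 with array weights. The cause was not tested. Plat, Anxa2 and S100a10 kept their sign under every alternative, and outside array weights none passed. With a filter at 5 FPKM Plau, and in all but the unfiltered fit Serpine2, were too low to enter. Serpine2 (at most 5 reads per library), Plau (64 to 127) and Clec3b (37 to 410) rest on the fewest reads.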
